A study of Rattus norvegicus with 6 samples.

Results

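The 9 NRF2 antioxidant genes described here are the transcription factor gene Nfe2l2, its inhibitor gene Keap1, and 7 genes of quinone, glutathione, thioredoxin and lipid peroxide metabolism, namely Nqo1, Gclc, Gclm, Txnrd1, Srxn1, Gsr and Gpx4. They were chosen by symbol, and each matched 1 row of the 20609 genes in the count table. The libraries were labelled as PC12 cells, a rat pheochromocytoma line, with 3 libraries from cells given a control plasmid (Ctrl) and 3 from cells given a PCBP1 overexpression plasmid (PCBP1-OE). According to the methods the PCBP1 plasmid carried an EGFP tag and was introduced with a lipid reagent, while the paper elsewhere describes the overexpression as stable, so whether the cells sequenced were transiently transfected or a stable line cannot be told from these sources. The methods give a single culture medium with serum, antibiotics and the reducing agent β-mercaptoethanol. The harvest time of the RNA-seq cultures is not given in the sources used here. Pcbp1 itself was not among the genes looked up, so its level was not read from these counts. The paper reports higher PCBP1 in PCBP1-OE by RT-qPCR and western blotting. The paper calls the replicates biological, but nothing in the labels says that the 3 libraries of a group came from separate cultures, so the p-values measure only the spread between these libraries, which may be technical.

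NRF2, the protein made from Nfe2l2, is a basic leucine zipper factor that pairs with small MAF proteins on antioxidant response elements. In unstressed cells KEAP1 binds it and presents it to a CUL3 ubiquitin ligase, which keeps its level low. Oxidants and electrophiles modify cysteines of KEAP1, NRF2 then builds up, and genes for glutathione synthesis, thioredoxin recycling and quinone reduction are switched on. Much of this control acts on the protein, which RNA counts do not measure.

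The antioxidant response element is read here by its core, TGACNNNGC, searched on both strands in RefSeq windows of 250 bases before to 50 bases after each gene start (assembly GRCr8). The tables held 11 such windows for 8 of the 9 genes, with Gsr not matched. A match was present in 3 of the 11 windows, those of Nfe2l2, Gclm and 1 of Txnrd1, while 12.1% of all 33469 windows held one. A match is a description of letters and was not tested for binding. Sequence outside these windows was not searched, so a window without a match does not show that its gene lacks the element. The first base of the match lay 172 bases before the start in Gclm (chr2:213031953-213031981, plus strand), 78 bases before it in Txnrd1 (chr7:22755964-22755992, minus strand) and 39 bases into the transcript in Nfe2l2 (chr3:81028950-81028971, minus strand). In the lists of other antioxidant genes described below, 16 of 93 windows (17.2%) held a match, of which 5 belong to genes that passed the test and 11 to genes that did not. The 5 are shown with the 3 above because the results name those genes, and no relation between a match and a change was tested. Those 5 are Gstp1 (chr1:210769748-210769776, minus strand), Prdx1 (chr5:135383761-135383789, plus strand), Prdx4 (chrX:43878742-43878770, plus strand), Prdx5 (chr1:213532010-213532038, minus strand) and Sesn2 (chr5:150005277-150005305, minus strand). All are written 5′ to 3′ on the strand of the gene, and capitals mark the core, in the forward direction for Nfe2l2, Gstp1 and Sesn2 and as its reverse complement in the others.
Nfe2l2: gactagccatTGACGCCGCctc
Gclm: tgcggtttctGCTTAGTCAttgtcttcca
Txnrd1: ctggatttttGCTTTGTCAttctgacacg
Gstp1: tccactgtgtTGACTCAGCatccggggcg
Prdx1: cagggaaagcGCTGAGTCAtaccccgccg
Prdx4: tttcgtgctcGCTTGGTCAtggaaacgtg
Prdx5: cctcctgtggGCAGAGTCAtctgcgggtg
Sesn2: cgcagcgggcTGACAGAGCcgggcgagcg

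The 6 libraries held 19730209 to 22315623 counts on genes. Values below are CPM, that is counts scaled to a common library total, after TMM scaling. Levels were compared between groups and not between genes, because transcript lengths were not used. Of the 7 chromaffin marker genes found in the table, 5 (Ddc, Dbh, Chga, Chgb and Phox2a) were under 1 CPM in every library, and Th, which encodes tyrosine hydroxylase, was at 6.85 to 8.86 CPM. The libraries therefore lacked most transcripts that define the chromaffin lineage, which goes against the label, and the identity of the line was not tested further. S100b, used as a glial marker, was at 211.5 to 243 CPM and Pdgfra, used as a fibroblast marker, at 195.2 to 225.6 CPM. The other markers of these lists were low, with Gfap at 4.08 to 6.95 CPM and Col1a1 at 2.99 to 3.67 CPM. Mbp and Aqp4 were under 1 CPM in every library. Neither S100b nor Pdgfra passed the test below, though Pdgfra passed as lower with the span correction described later (adjusted p = 0.0306, edgeR). The summed levels of the 4 glial markers, mostly S100b, were 224.9 to 250.3 CPM in Ctrl and 216 to 225.8 CPM in PCBP1-OE. Those of the 2 fibroblast markers matched, mostly Pdgfra, were 223.3 to 228.6 against 198.9 to 210.9 CPM. The 4 leukocyte markers summed to 6.82 to 7.76 and 6.13 to 6.22 CPM. The part of these markers in the results was not tested.

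PCBP1-OE was compared with Ctrl to ask whether overexpression changed the transcript levels of the NRF2 system. All 9 genes passed the filter on low counts. By the quasi-likelihood test of edgeR, adjusted by Benjamini-Hochberg over all 12624 genes tested, 1 of the 9 passed a false discovery rate (FDR) of 0.05. That gene was Gpx4, which was lower in PCBP1-OE. Over all genes tested 9.45% passed, 4.45% as higher and 5.00% as lower, so the share of the 9 (11.1%) lay near the background. The number of genes past the threshold was 562 higher and 631 lower, and with upper-quartile scaling 655 higher and 427 lower. None of the 9 reached the 2-fold change that the study also required, which 0.190% of all genes tested did together with the FDR. The median log2 fold change of the 9 was 0.065, with 5 higher and 4 lower, beside 0.0029 over all genes tested.

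**Figure D1:**
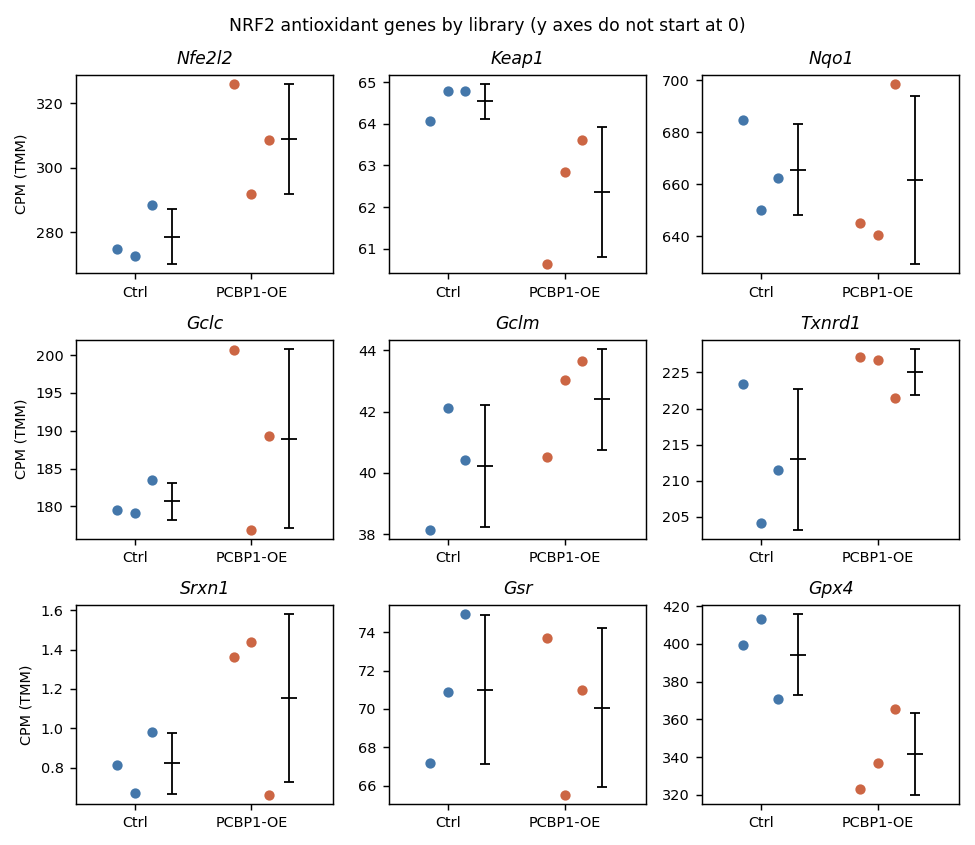
Each panel plots 1 gene in CPM after TMM scaling, with a point for each of the 3 Ctrl and 3 PCBP1-OE libraries and a bar for the mean ± SD beside them. The y axes do not start at 0. The groups do not overlap for Nfe2l2 (higher in PCBP1-OE), Keap1 and Gpx4 (both lower), and overlap for the other 6 genes.

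Nfe2l2 (ENSRNOG00000001548, chromosome 3) was at 274.8, 272.7 and 288.4 CPM in Ctrl and at 326, 292 and 308.6 CPM in PCBP1-OE. Each PCBP1-OE library lay above each Ctrl library, though PCBP1-OE replicate 2 was close to Ctrl replicate 3. The means were 278.7 ± 8.53 and 308.9 ± 17 CPM (SD, n = 3 each). The log2 fold change was 0.15 (SE, the standard error, 0.049, 95% interval 0.043 to 0.25). The gene did not pass the threshold (adjusted p = 0.0705, edgeR quasi-likelihood test). It passed with DESeq2 (0.0403), without the filter on low counts (0.0306) and without Ctrl replicate 3 (0.0205), and did not pass in the other 12 of 15 alternatives. The range over all 15 was 0.0205 to 0.284.

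Keap1 (ENSRNOG00000020878, chromosome 8), whose product holds NRF2 in the cytoplasm for degradation, was at 64.1, 64.8 and 64.8 CPM in Ctrl and 60.6, 62.8 and 63.6 CPM in PCBP1-OE. The groups did not overlap, but by a margin under 1 CPM. The change was -0.050 on the log2 scale, with a 95% interval of -0.15 to 0.051 and an SE of 0.047 (adjusted p = 0.521 by the same edgeR test). Separate groups were found in 30.6% of all genes tested, and the 3 of 9 found here lay near that background. For each 100 counts of Nfe2l2 there were 23.3, 23.8 and 22.5 counts of Keap1 in Ctrl and 18.6, 21.5 and 20.6 in PCBP1-OE. This ratio does not depend on library scaling, and it was lower in each PCBP1-OE library than in each Ctrl library. It was chosen after the values were seen and is given without a test. The ratio is not corrected for the relation with genomic span described later. With that correction the log2 fold change of Keap1 was 8.9e-05 and that of Nfe2l2 was 0.14.

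Nqo1 (ENSRNOG00000012772, chromosome 19) encodes a quinone reductase and is among the most widely used readouts of NRF2 activity. It was at 684.5, 650.3 and 662.3 CPM in Ctrl and 645.2, 640.7 and 698.7 CPM in PCBP1-OE. The highest library and the lowest library were both PCBP1-OE, and the groups overlapped. On the log2 scale Nqo1 differed by -0.0090 (SE 0.047) with an adjusted p of 0.923 in the edgeR test, and its 95% interval of -0.11 to 0.092 holds changes in either direction. The sign turned positive with upper-quartile scaling (0.011). With 12927 to 14851 counts per library, counting error was small for this gene.

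Gclc and Gclm encode the catalytic and the modifier subunit of glutamate-cysteine ligase, the first and rate-limiting step of glutathione synthesis. Gclc (ENSRNOG00000006302, chromosome 8) was at 179.5, 179.1 and 183.5 CPM in Ctrl and 200.7, 176.9 and 189.3 CPM in PCBP1-OE. The Ctrl libraries lay close together, and PCBP1-OE replicate 2 was the lowest of all 6. Gclm (ENSRNOG00000013409, chromosome 2) was at 38.1, 42.1 and 40.4 CPM in Ctrl and 40.5, 43 and 43.6 CPM in PCBP1-OE, again with overlap. The log2 fold changes were 0.065 (SE 0.050, 95% interval -0.043 to 0.17) for Gclc and 0.075 (SE 0.061, 95% interval -0.057 to 0.21) for Gclm. Neither passed the threshold (adjusted p = 0.429 and 0.455, same edgeR test).

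Gsr (ENSRNOG00000014915, chromosome 16), the reductase that returns oxidized glutathione to its thiol form, was at 67.2, 70.9 and 75 CPM in Ctrl and 73.7, 65.5 and 71 CPM in PCBP1-OE. The range of PCBP1-OE spanned most of that of Ctrl. Gsr differed by -0.019 on the log2 scale (SE 0.058), with a 95% interval of -0.14 to 0.11 and an adjusted p of 0.856 in the edgeR test. Upper-quartile scaling turned its sign (2.8e-04).

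Txnrd1 (ENSRNOG00000009088, chromosome 7) encodes the cytosolic thioredoxin reductase, a selenoprotein. It was at 223.4, 204.1 and 211.5 CPM in Ctrl and 227.1, 226.7 and 221.4 CPM in PCBP1-OE. Only Ctrl replicate 1 reached into the PCBP1-OE range. The log2 fold change was 0.080 (SE 0.046, 95% interval -0.019 to 0.18), at an adjusted p of 0.274 in the edgeR test. Srxn1 (ENSRNOG00000031167, chromosome 3), the sulfiredoxin that repairs overoxidized peroxiredoxins, had 16, 14 and 22 counts in Ctrl and 30, 29 and 13 in PCBP1-OE. The PCBP1-OE libraries held both the highest and the lowest count. Its log2 fold change of 0.49 was the largest of the 9 and had an SE of 0.34 and a 95% interval of -0.25 to 1.22 (adjusted p = 0.372, same edgeR test). A difference was not detectable at this depth.

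Gpx4 (ENSRNOG00000013604, chromosome 7) encodes the selenoprotein that reduces lipid hydroperoxides in membranes and holds back ferroptosis, an iron-dependent form of cell death. It was at 399.2, 412.9 and 370.7 CPM in Ctrl and at 323, 336.7 and 365.4 CPM in PCBP1-OE, with means of 394.3 ± 21.5 and 341.7 ± 21.6 CPM (SD, n = 3 each). The groups did not overlap, although Ctrl replicate 3 and PCBP1-OE replicate 3 nearly met. Gpx4 fell by 0.21 on the log2 scale (SE 0.055, 95% interval -0.33 to -0.088, adjusted p = 0.0372, edgeR quasi-likelihood test), which is 0.867-fold. In bulk RNA a lower level per cell and fewer cells with the transcript cannot be told apart. The call was lost without Ctrl replicate 1 (adjusted p = 0.133), Ctrl replicate 2 (0.191), and likewise without replicate 1 (0.163) or replicate 2 (0.134) of PCBP1-OE, and with a correction for gene span (0.102), within a range of 6.1e-04 to 0.191 over 15 alternatives of which 9 kept it.

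**Figure D2:**
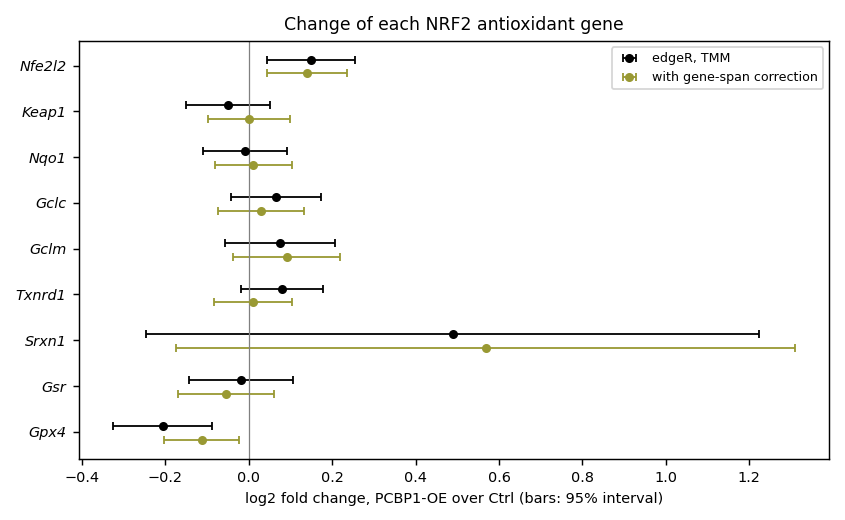
The log2 fold change of PCBP1-OE over Ctrl is plotted for each gene with its 95% interval, from edgeR with TMM scaling (black) and with a correction for genomic span (olive). Intervals of Nfe2l2 (0.043 to 0.25) and Gpx4 (-0.33 to -0.088) lie to either side of 0, and the others cross it.

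The change between the groups moved with the genomic span of a gene, a measure that was examined after the data had been seen. Spans from RefSeq GRCr8 were found for 84.7% of the genes tested. In the decile with the shortest spans, up to 4577 bases, the median log2 fold change was -0.098, with 12% of genes called lower and 2.05% called higher. In the ninth decile, from 72981 to 124405 bases, it was 0.087, with 1.40% called lower and 9.35% higher. Gpx4, with a span of 2797 bases, fell in the shortest decile. Txnrd1 (84934 bases) fell in the ninth decile, and its change of 0.080 was close to the median there. Nfe2l2 (29637 bases) lay in a decile with a median of 0.015, below its own 0.15. With a span correction the log2 fold change of Gpx4 was -0.11 (SE 0.042) and that of Nfe2l2 0.14 (SE 0.045, adjusted p = 0.0666, same edgeR test). Txnrd1 was then at 0.011, Keap1 at 8.9e-05, Nqo1 at 0.010, Gclc at 0.029, Gsr at -0.054 and Gclm at 0.091, and Srxn1 was at 0.57 (SE 0.35). With this correction 0 of the 9 genes passed an FDR of 0.05 in edgeR's test, and 2 (Nfe2l2 and Gpx4) had an unadjusted p under 0.05 (0.00755 and 0.0172). The share of all genes under that unadjusted p was not computed. DESeq2, without the correction, called 2 of the 9. The source of the relation with span was not tested.

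**Figure D3:**
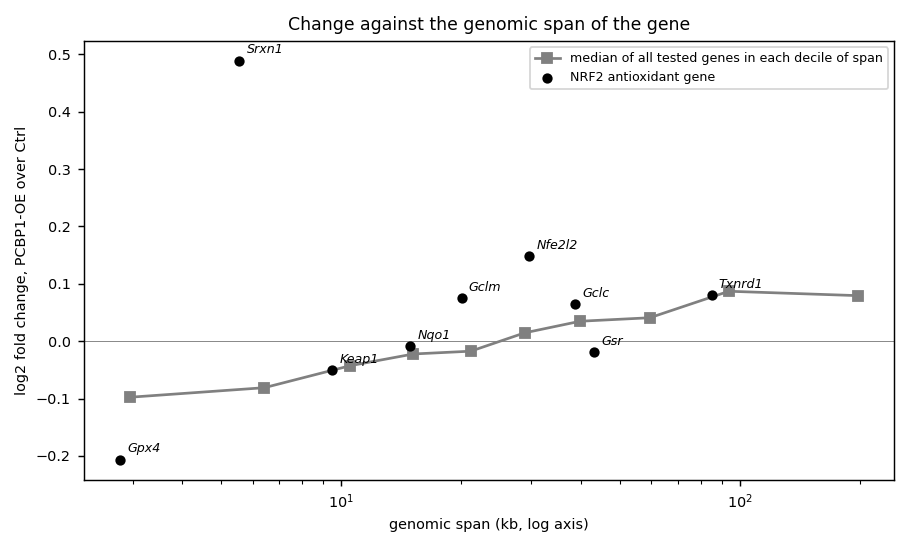
The log2 fold change of PCBP1-OE over Ctrl is plotted against genomic span in kb on a log axis. Grey squares are the medians of all genes tested in each decile of span, placed at the median span of that decile and rising from -0.098 to 0.079, with 0.087 in the ninth, and black points are the 9 genes. Gpx4 lies at the short end and below the median of its decile, and Txnrd1 lies near the median of its own.

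The wider NRF2 and thiol system was read from 6 lists, of which 107 table rows were tested. In these lists 4 genes rose and 14 fell at an FDR of 0.05, which is 16.8% of rows beside 9.45% of all genes tested (4.45% higher and 5.00% lower), and the median log2 fold change was -0.086. The share was uneven, with 38.1% in the list of thioredoxins, peroxiredoxins, superoxide dismutases and catalase and 6.25% to 14.8% in each of the others. With the span correction 6 rose and 10 fell, and 12 of the 18 calls were kept. Leaving out 1 library moved the number of genes called lower from 14 to 1, 0 and 30 when Ctrl replicates 1, 2 and 3 were omitted, and to 1 and 0 when replicates 1 and 2 of PCBP1-OE were. The number called higher moved from 4 to 2 and 9 without Ctrl replicates 2 and 3, and to 2 without PCBP1-OE replicate 2. Txnip passed in all 15 alternatives, Secisbp2l in 14, and each of the other 16 called genes in 7 to 12.

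**Figure D4:**
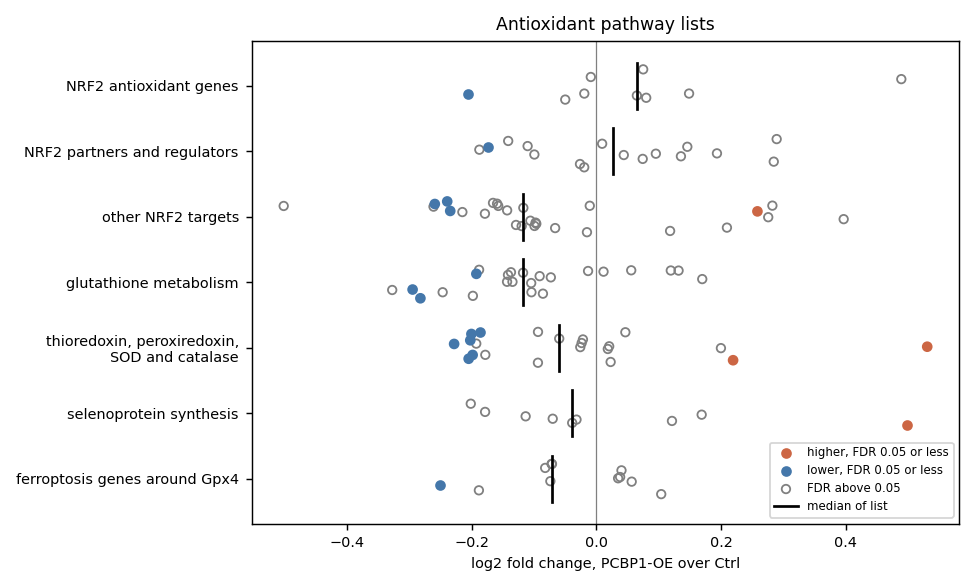
Each point is 1 tested gene, placed by its log2 fold change of PCBP1-OE over Ctrl, in the row of its list. Filled points passed an FDR of 0.05 (orange higher, blue lower), open points did not, and the black bar is the median of the list, which is 0.065 for the 9 NRF2 antioxidant genes and -0.12 for other NRF2 targets and for glutathione metabolism.

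Among 16 tested partners and regulators of NRF2, 0 rose and 1 fell by edgeR's test (6.25% beside 9.45% of all genes tested). The median log2 fold change of the 16 was 0.026. At an unadjusted p under 0.05, 4 were higher and 3 lower, and DESeq2 and the likelihood-ratio test of edgeR each called 2 higher and limma-voom 0. The share of all genes tested under that unadjusted p was not computed, so such counts have no background here or in the lists below. The gene that fell was Gsk3a, a kinase that can mark NRF2 for degradation outside the KEAP1 route. It was at 103, 108.2 and 106.1 CPM in Ctrl and 91.4, 94.5 and 95.3 CPM in PCBP1-OE. It fell by 0.17 on the log2 scale with an SE of 0.044, at an adjusted p of 0.0303 in the edgeR test and of 0.0783 with the span correction. Mafk, a small MAF partner of NRF2, had a log2 fold change of 0.19 and did not pass the threshold (adjusted p = 0.0610, same edgeR test; 0.0480 with the span correction). Sqstm1, the p62 autophagy adaptor that binds KEAP1, had 0.14 (adjusted p = 0.0682; 0.0193 with the span correction). Nfe2l1 and Syvn1 of the same list had smaller p-values than Sqstm1 and went in opposite directions. Nfe2l1 was at 0.29 (adjusted p = 0.0655, same edgeR test, and 0.0533 with the span correction). Syvn1 was at -0.19 (adjusted p = 0.0670, and 0.179 with the span correction).

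Of 27 tested rows for other NRF2 targets, 1 rose and 3 fell, with a median log2 fold change of -0.12. That is 14.8% of rows beside 9.45% of all genes tested. Cbr1 is on 2 rows of the table, so its counts are uncertain. The gene that rose was Hmox1, which encodes the heme-degrading enzyme heme oxygenase 1, at 913.6, 842.6 and 937.1 CPM in Ctrl and 1034, 1058 and 1130 CPM in PCBP1-OE. Among the genes that fell were Gstp1 (-0.26), a glutathione S-transferase, and Blvrb (-0.24), a biliverdin reductase that acts downstream of heme oxygenase. Their adjusted p-values were 0.0260 and 0.0208, and that of Hmox1 0.0138 (edgeR quasi-likelihood test), and Hmox1, Gstp1 and Blvrb kept an FDR of 0.05 with the span correction. Slc7a11, the cystine importer, was at 0.21 (SE 0.13) and did not pass (adjusted p = 0.314). Targets thus had calls in both directions in the same libraries, as did all genes tested (4.45% higher and 5.00% lower). By sign alone, 6 of the 27 rows were higher and 21 lower, beside 6370 higher and 6254 lower of all genes tested. The groups did not overlap for 2 higher and 14 lower rows, and did not for 30.6% of all genes tested. With the span correction the median of the list was -0.085.

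Of 23 tested genes of glutathione metabolism, 0 rose and 3 fell by edgeR's test, with a median of -0.12. Of all genes tested 9.45% passed, 4.45% as higher and 5.00% as lower, and the list was not tested against these shares. None of the 23 was higher at an unadjusted p under 0.05 or by DESeq2, the likelihood-ratio test or limma-voom. At that unadjusted p 11 were lower. The share of all genes tested under that unadjusted p was not computed, so the 11 cannot be set against a background. Those that fell were the microsomal glutathione S-transferases Mgst2 (-0.29) and Mgst3 (-0.28), and the glutaredoxin Glrx (-0.19). Mgst2 went from 269.6, 276.8 and 237.6 CPM in Ctrl to 209.8, 206.5 and 222.7 CPM in PCBP1-OE, with no overlap. Glrx and Mgst3 did not pass with the span correction (adjusted p = 0.0652 and 0.0516), and Mgst2 did (0.00942).

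The list of thioredoxins, peroxiredoxins, superoxide dismutases and catalase had 2 genes that rose and 6 that fell among 21 tested. That is 38.1% beside 9.45% of all genes tested. The list was chosen with earlier results of these data known, and its share was not compared with that of genes of like abundance. Of the 6 that fell, Prdx5 lies in the shortest span decile and Prdx2 and Sod3 in the next, where 12.0% and 9.35% of all genes were called lower. With the span correction 2 rose and 3 fell. Txnip, which encodes an inhibitor that binds thioredoxin, rose by 0.53 (log2; SE 0.054, adjusted p = 4.0e-04, edgeR quasi-likelihood test). It was at 99.7, 108.2 and 116.4 CPM in Ctrl and 156.6, 155.2 and 157 CPM in PCBP1-OE, and the 3 PCBP1-OE libraries were nearly equal. Sesn2, a stress-responsive sestrin, rose by 0.22 (adjusted p = 0.0372). The genes that fell were the thioredoxin gene Txn1 (-0.20), the peroxiredoxin genes Prdx1 (-0.19), Prdx2 (-0.20), Prdx4 (-0.20) and Prdx5 (-0.20), and Sod3 (-0.23), the extracellular superoxide dismutase. Prdx1, a peroxiredoxin that sulfiredoxin can repair, was at 962.9, 959.5 and 857.1 CPM in Ctrl and 800.7, 797.9 and 844.7 CPM in PCBP1-OE, with Ctrl replicate 3 nearest to the other group. Prdx1, Prdx4 and Sod3 kept an FDR of 0.05 with the span correction (adjusted p = 0.0458, 0.0386 and 0.0331), and Txn1 (0.0506), Prdx2 (0.0928) and Prdx5 (0.136) did not.

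Gpx4 and Txnrd1 need selenocysteine, which a dedicated machinery inserts at UGA codons. Of 9 tested genes of selenoprotein synthesis, 1 rose and 0 fell by edgeR's test (11.1% beside 9.45% of all genes tested). At an unadjusted p under 0.05, 2 were higher and 3 lower, with no share of all genes computed at that cut. DESeq2 called 1 lower, and the likelihood-ratio test and limma-voom called 0 lower. Secisbp2l, a relative of the protein that binds the selenocysteine insertion element, rose by 0.50 (log2; SE 0.069, adjusted p = 0.00324, edgeR quasi-likelihood test), from 25.2, 24.6 and 27.8 CPM to 37.8, 36.2 and 35.8 CPM. Eefsec, the elongation factor that delivers selenocysteine, was at -0.18 (adjusted p = 0.0901 by edgeR) and passed as lower with the span correction (0.0338). Secisbp2 itself was at 0.17 and did not pass (adjusted p = 0.168). Of 11 tested genes that act around Gpx4 in ferroptosis, 0 rose and 1 fell by edgeR's test (9.09% beside 9.45% of all genes tested). Of the 11, 1 was higher at an unadjusted p under 0.05, and 0 were called higher by DESeq2, the likelihood-ratio test and limma-voom. Fdft1, squalene synthase of the cholesterol pathway, was at 123, 125.8 and 113.8 CPM in Ctrl and 107.3, 96.2 and 101 CPM in PCBP1-OE. It fell by 0.25 on the log2 scale, at an adjusted p of 0.0175 in the edgeR test and of 0.0128 with the span correction. Acsl4, which loads polyunsaturated fatty acids into membrane lipids, was at -0.071 (adjusted p = 0.481).

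The genes whose pattern over the 6 libraries was most like that of Nfe2l2, among 8463 genes with a mean of at least 10 CPM, were Hif1a (Pearson's r = 0.992, Spearman's rho = 0.943), Rars2 (0.988 and 1.0) and Zkscan3 (0.988 and 0.943). In all, 239 genes had an r over 0.9 with Nfe2l2. For Nqo1 they were Ywhae (0.985 and 0.943), RGD1307752 (0.966 and 1.0) and Anapc16 (0.961 and 1.0), with 31 genes over 0.9. These correlations of log2 CPM were taken over the 6 libraries of both groups, so a common difference between the groups enters them. Hif1a, Rars2 and Zkscan3 were all higher in PCBP1-OE (log2 fold changes of 0.34, 0.20 and 0.20). Of these Hif1a passed (adjusted p = 0.0179, edgeR quasi-likelihood test) and the others did not. The correlations may also share library depth and the relation with span, and are given as a description.

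**Figure D5:**
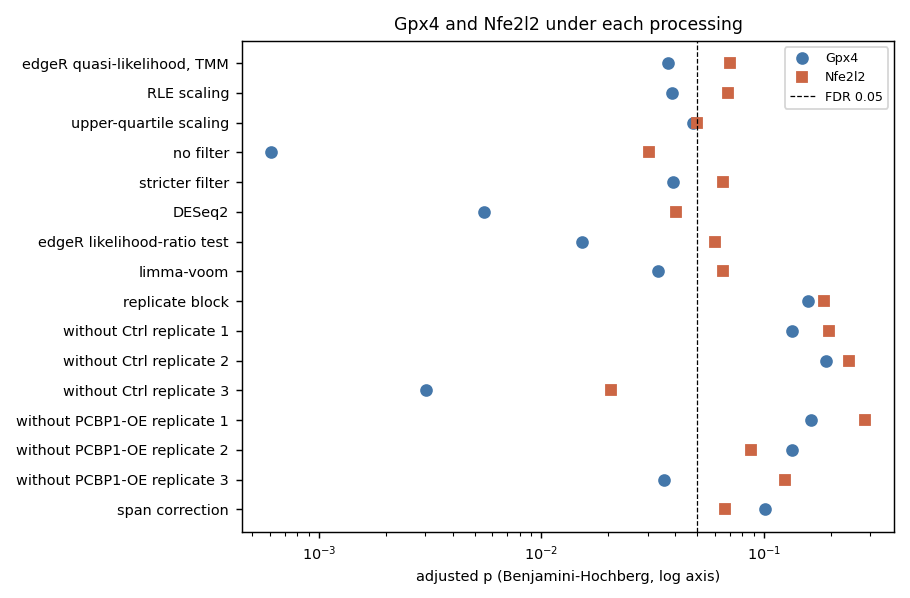
Adjusted p of Gpx4 (circles) and Nfe2l2 (squares) on a log axis under the edgeR quasi-likelihood test and 15 alternatives, with a dashed line at 0.05. Gpx4 lies left of the line in 9 alternatives and Nfe2l2 in 3, and leaving out Ctrl replicate 2 moved Gpx4 to 0.191 and leaving out Ctrl replicate 3 moved it to 0.00301.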

How the data were processed

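RNA-seq libraries of PC12 cells (3 Ctrl, 3 PCBP1-OE) were grouped by their titles. The values are unnormalized read counts that the authors deposited for each gene. Their methods name FASTX-Toolkit for trimming, TopHat2 for alignment to the rat build Rnor_6.0, and counting of uniquely mapped reads. The submitters' processing notes also list bcl2fastq, edgeR and the build GRCh38, whereas the gene IDs of the table are those of rat. The labels and the methods name different kits, each strand-specific. Which tool counted the reads, with what strand setting and annotation, is not given in the sources used here, which leaves genes that overlap or have a near-identical copy uncertain.

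Groups were compared with the quasi-likelihood test of edgeR 4.0.16 (R 4.3.3) on these counts with TMM and filterByExpr (minimum count 10, minimum total 15), which left out 7985 genes. The standard error is the log2 fold change divided by the square root of F. Adjusted p-values are Benjamini-Hochberg values over all 12624 genes tested. The alternatives tried were upper-quartile and RLE scaling, no filter, a filter of 1 CPM in 3 libraries, DESeq2 1.42.0, edgeR's likelihood-ratio test, limma-voom (limma 3.58.1), the replicate number as a block, each library left out, and, added after seeing the data, an offset per library and decile of genomic span (pseudocount 0.5). Checks, motif searches and figures used Python 3.11.15. The fits were first tested on simulated counts with known changes of 1 on the log2 scale, larger than those of the genes named here. The simulation held no relation with span and no shift shared within a library, so it does not cover those features of the data.

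The 9 genes and the lists were chosen with earlier results of these data known. All 9 genes are named. Genes of the lists are named when they passed an FDR of 0.05 (otherwise, the 2 with the smallest p of a list), and the 3 genes most like Nfe2l2 and Nqo1 are named. Mafk, Sqstm1, Nfe2l1, Syvn1, Slc7a11, Secisbp2, Eefsec and Acsl4 were added after their values were seen. Likeness used log2 of CPM plus 1. Of 114 listed genes 109 were matched, by symbol or by a RefSeq synonym, and 1 gene that passed is not reported by name here. The splicing and CLIP data were not analysed here.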

Additional observations from a re-analysis of the deposited data

How the results depend on the processing

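Of the 9 genes, 1 passed an FDR of 0.05; 2 passed without a filter and with DESeq2, 0 with the replicate number as a block and 0 with the span correction, and 0 to 2 with 1 library left out (0 without Ctrl replicate 1 or 2 or PCBP1-OE replicate 1 or 2, and 2 without Ctrl replicate 3). Their median log2 fold change of 0.065 was 0.085 with upper-quartile scaling, 0.031 with the stricter filter, which left out Srxn1, 0.011 with the span correction and 0.019 to 0.074 with 1 library left out. Over all genes 1193 passed, 2090 without a filter, 16 with the replicate block and 48 (without Ctrl replicate 2) to 2860 (without Ctrl replicate 3) with 1 library left out. The sign turned for Keap1 with the span correction (8.9e-05), for Gsr with upper-quartile scaling (2.8e-04) and without Ctrl replicate 3 or PCBP1-OE replicate 2 (range over omissions -0.058 to 0.027), and for Nqo1 with upper-quartile scaling (0.011), with the span correction (0.010) and without Ctrl replicate 1 or PCBP1-OE replicate 1 or 2 (range over omissions -0.043 to 0.017). The other 6 genes kept their sign wherever they were fitted, and so did the 18 called genes of the lists. DESeq2 gave Srxn1 no adjusted p.

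Deviations from the group means had correlations of -0.104, -0.0813 and -0.107 between libraries with the same replicate number. Those between libraries with different numbers were 0.015 to 0.083. Such deviations sum to 0 within each group by construction, so these correlations are not independent of one another. None between libraries with the same number was positive. Whether the numbers pair the libraries was not tested. With the replicate block Gpx4 was at an adjusted p of 0.158 and Nfe2l2 at 0.186 (edgeR quasi-likelihood test). Of the called genes of the lists 1 higher and 0 lower passed with the block. For Srxn1, 13 to 30 counts per library set the limit. The cause of these shifts was not tested.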
